A study of Mus musculus with 8 samples.

Results

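The S100 proteins and annexins of neutrophils that had entered the air pouch of mice injected with lipopolysaccharide (LPS) were examined at the level of messenger RNA, with and without the small GTPase Arf6. The list held 10 genes, S100a8, S100a9, S100a4, S100a6, S100a10, S100a11, Anxa1, Anxa3, Anxa5 and Anxa11. A member was read from every probe set that the platform annotation assigns to its symbol and to no other. Of the 10 genes, 9 had such a probe set, 1 each, of 22180 genes with a probe set of their own among the 34472 probe sets of the array, and all 9 passed the filter on dim signals. Anxa11 was named only by 3 probe sets that also carry the symbols of predicted genes, so no value is given for it.

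S100 proteins are small calcium sensors built on EF-hand motifs. S100A8 and S100A9 pair to form calprotectin, which makes up much of the neutrophil cytosol, binds zinc and manganese, and acts as an alarm signal once it leaves the cell. Annexins bind acidic phospholipids such as phosphatidylserine in a calcium-dependent way and take part in membrane traffic, membrane repair and the clearance of dying cells. The families meet in complexes, the best known being S100A10 with annexin A2 and S100A11 with annexin A1.

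Each of the 8 arrays held RNA of neutrophils pooled from 5 mice and enriched by negative selection, with 98% of the cells stained for Ly6G per the design text. The conditional knockout (cKO) carried Cre and floxed Arf6, each in homozygous form (flox+/+Cre+/+, 3 arrays). The Cre control carried Cre without the floxed allele (flox-/-Cre+/+, 2 arrays), and the flox control carried the floxed allele without Cre (flox+/+Cre-/-, 3 arrays). All pools came from LPS-injected pouches, so no array shows the resting state. The sources used here give neither the promoter that drives Cre nor the strain, sex and age of the mice. Cre lines driven by the human S100A8 promoter are in common use for neutrophils, but whether one was used here is not stated. In all 8 samples the source field and the genotype label disagree, and groups follow the genotype label, as the titles do.

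Arf6 itself followed the genotype labels. Its brighter probe set read 6.49, 6.06 and 6.20 (log2) in the cKO, against 7.79 and 7.86 in the Cre control and 8.19, 8.20 and 7.68 in the flox control. The fold change against both controls was -1.67 on the log2 scale (SE 0.15, limma adjusted p = 0.0122). Here and below, a difference from both controls is taken from the mean of the 2 control group means. The 2 Cre control arrays thus weigh as much as the 3 flox control arrays. A dimmer Arf6 probe set did not pass (-0.15, SE 0.15, adjusted p = 0.816). Array medians lay between 5.41 and 5.48 and the highest reading of each array between 14.10 and 14.17. Of 8 neutrophil markers, 7 had a probe set of their own, and Ly6g, with 10.54 to 11.47, was far above the median of all values (5.45), as were Csf3r (13.23 to 13.46) and Cxcr2 (13.05 to 13.37), the receptors for G-CSF and for CXC chemokines.

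Among the pools, 2 stood apart in sex-linked transcripts. Eif2s3y, on the Y chromosome, read 4.08 in cKO replicate 1 and 8.66 to 10.04 in the other arrays, and Xist, the X-inactivation transcript, read 5.46 in flox control replicate 1 and 7.84 to 10.21 in the others. Values without both pools are given where they change a call or a direction.

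The promoters of 4 members are shown to set the calprotectin pair beside a gene of the same cluster and an annexin. S100a8 and S100a9 lie side by side on chromosome 3 and gave signals close to the top of every array, S100a4 belongs to the same gene cluster and stayed furthest from the top, and Anxa1 lies on chromosome 19. Each sequence is the 250 bases before the RefSeq start site (GRCm38.p6), 5′ to 3′ on the strand of the gene. Capitals mark matches to the TATA box (TATAAA), a C/EBP motif (TTGCNNAA), an AP-1 motif (TGANTCA), a PU.1 core (GAGGAA) and a GC box (GGGCGG), each searched on both strands. C/EBP factors and PU.1 are known regulators of myeloid genes.
S100a8, chr3:90668821-90669070, + strand: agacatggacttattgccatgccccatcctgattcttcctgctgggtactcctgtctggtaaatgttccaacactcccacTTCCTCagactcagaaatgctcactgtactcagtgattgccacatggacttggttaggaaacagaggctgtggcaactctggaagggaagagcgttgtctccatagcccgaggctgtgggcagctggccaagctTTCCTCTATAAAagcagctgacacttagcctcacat
S100a9, chr3:90695722-90695971, - strand: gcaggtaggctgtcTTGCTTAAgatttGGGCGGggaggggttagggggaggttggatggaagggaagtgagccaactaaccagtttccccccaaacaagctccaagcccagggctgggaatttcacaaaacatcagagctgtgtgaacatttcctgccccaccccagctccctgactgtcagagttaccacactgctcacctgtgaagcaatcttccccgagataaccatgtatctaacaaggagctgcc
S100a4, chr3:90603520-90603769, + strand: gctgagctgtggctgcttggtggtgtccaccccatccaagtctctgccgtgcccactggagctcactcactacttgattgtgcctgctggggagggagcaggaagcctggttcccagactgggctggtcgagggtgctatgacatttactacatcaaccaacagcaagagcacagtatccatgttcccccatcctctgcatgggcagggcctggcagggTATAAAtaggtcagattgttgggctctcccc
Anxa1, chr19:20390672-20390921, - strand: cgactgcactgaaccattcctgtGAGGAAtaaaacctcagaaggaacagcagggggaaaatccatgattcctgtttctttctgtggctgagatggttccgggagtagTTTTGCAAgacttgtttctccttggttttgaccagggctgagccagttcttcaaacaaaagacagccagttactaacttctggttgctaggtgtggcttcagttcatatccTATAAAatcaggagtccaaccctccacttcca

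A TATA box was found in 3 of the 8 members with a promoter sequence, S100a8, S100a4 and Anxa1, and in 12.4% of all 32851 promoter windows of that length. It began 30, 31 and 32 bases before the start. The PU.1 core was found in S100a8, S100a11, Anxa1 and Anxa11 (23.3% of all windows), and the C/EBP motif in S100a9 and Anxa1 (9.56%). The GC box was found in S100a9, S100a11 and Anxa11 (32.7%) and the AP-1 motif in S100a11 alone, at 2 positions (6.75%). In S100a8 a PU.1 core read on the other strand (TTCCTC) ends where the TATA box begins, and no matches overlapped in the 4 windows shown. These matches describe letters in these windows and say nothing about binding.

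S100a8 and S100a9, the calprotectin subunits, were near the top of the signal range in all 8 arrays, and no difference between the groups passed. S100a8 read 13.13, 13.36 and 13.24 (log2 intensity) in the cKO, against 13.21 and 13.10 in the Cre control and 13.30, 13.23 and 13.23 in the flox control. S100a9 read 13.23, 13.38 and 13.30 in the cKO, against 13.15 and 13.22 in the Cre control and 13.47, 13.35 and 13.32 in the flox control. For both genes the cKO arrays overlapped the 5 controls, and for S100a8 the highest of all 8 arrays was cKO replicate 2. Both Cre control arrays were below all 3 flox control arrays in each gene. Against both controls the fold change was 1.03 for S100a8 (log2 0.04, SE 0.10, 95% interval of the fold 0.882 to 1.1996, adjusted p = 0.947) and 1.01 for S100a9 (log2 0.02, SE 0.10, 95% interval of the fold 0.872 to 1.18, adjusted p = 0.977). With the Cre control set against the flox control, the log2 difference was -0.19 for S100a9 (SE 0.12, adjusted p = 0.4996) and -0.10 for S100a8 (SE 0.12, adjusted p = 0.773).

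The distance from the highest reading of the same array shows how near these genes lay to the brightest probe set observed. That maximum is not a measured limit of the array. S100a11, a partner of annexin A1, lay 0.53 to 0.81 log2 units below that maximum, S100a9 0.63 to 0.99, and S100a8 0.80 to 1.03. The SD over the 8 arrays was 0.08 for S100a8, 0.10 for S100a9 and 0.09 for S100a11. The 72 tested probe sets with a mean above 13 had a median SD of 0.10, against 0.19 over all 14002 tested probe sets, so a narrow spread was shared by probe sets at this height. Whether a difference between the groups was compressed there was not tested. The other members lay further below: S100a6 1.73 to 2.36, Anxa1 1.93 to 2.60, Anxa3 3.10 to 4.74, Anxa5 4.05 to 4.84, S100a10 4.63 to 5.31, and S100a4 6.04 to 6.59. Probes differ in how strongly they bind, so these distances give no order of transcript amounts.

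**Figure D1:**
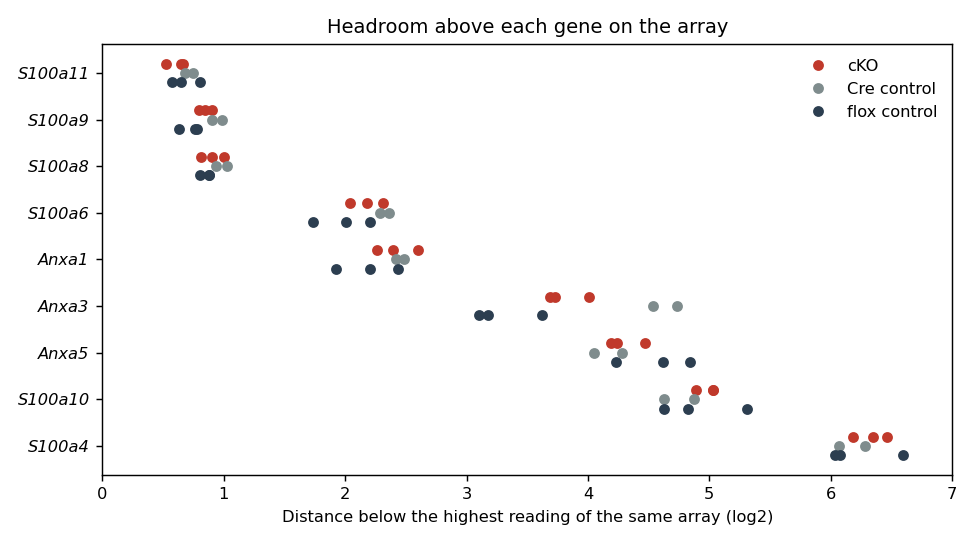
Distance of each of the 9 genes below the highest reading of the same array (log2, horizontal axis), with 1 point per array coloured by group. S100a11, S100a9 and S100a8 stayed within 1.03 log2 units of the maximum in every array, whereas S100a4 stayed at least 6.04 below it. On this scale the 3 groups do not overlap for Anxa3 or for S100a9. For S100a9 the gaps are narrow (0.781 in flox control replicate 3 beside 0.794 in cKO replicate 2). Its log2 levels overlap between the cKO and the flox control, whose array maxima (14.10 to 14.11) were the lowest. A lower maximum brings every probe set of its array nearer to it. How many of all probe sets separate on this scale was not counted, so the S100a9 gaps are not read as a difference between the groups.

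S100a11 showed the same narrow range. It read 13.60, 13.51 and 13.50 in the cKO, against 13.46 and 13.38 in the Cre control and 13.53, 13.46 and 13.30 in the flox control. The cKO arrays were above both Cre control arrays and overlapped the flox control. The difference from both controls was 0.11 (SE 0.10, 95% interval -0.11 to 0.33, adjusted p = 0.790). A pseudogene, S100a11-ps, lies on chromosome 12 and has a probe set of its own, which read 9.27 to 9.45. Whether the S100a11 probes also bind transcripts of the copy was not tested, so the value is given as uncertain.

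S100a6, calcyclin, is a calcium sensor known to bind the ubiquitin ligase adaptor CacyBP. It read 11.82, 12.13 and 11.97 in the cKO, against 11.85 and 11.77 in the Cre control and 12.37, 12.11 and 11.90 in the flox control. Both Cre control arrays were below all flox control arrays, and the cKO overlapped each control. Between the controls its difference was -0.31 (SE 0.16, adjusted p = 0.405), and the cKO differed from both controls by 0.0053 (SE 0.13, adjusted p = 0.995), neither of which passed.

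S100a4 is known for binding the heavy chain of non-muscle myosin, and S100a10 is the partner of annexin A2 that has lost calcium binding. Both lay far below the array maximum but above the 75th percentile of all values (6.64) in every array. S100a4 read 7.95, 7.82 and 7.68 in the cKO, against 8.08 and 7.85 in the Cre control and 8.06, 8.04 and 7.51 in the flox control. S100a10 read 9.24, 9.14 and 9.12 in the cKO, against 9.27 and 9.50 in the Cre control and 9.47, 9.28 and 8.80 in the flox control. In both genes the third flox control array was the lowest of all 8, and the other flox control arrays were above every cKO array. Against both controls S100a4 differed by -0.10 (SE 0.15, adjusted p = 0.898) and S100a10 by -0.12 (SE 0.15, adjusted p = 0.867). The S100a10 arrays of the cKO were all below those of the Cre control (-0.22, SE 0.19, adjusted p = 0.689), a difference that did not pass.

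Anxa3 was the member with the largest spread over the arrays. Annexin A3 is abundant in human neutrophils, where it is known to associate with granule and phagosome membranes. It read 10.40, 10.17 and 10.45 in the cKO, against 9.40 and 9.59 in the Cre control and 10.9967, 10.94 and 10.48 in the flox control. The 3 groups had no overlap, with the Cre control lowest, the flox control highest and the cKO between them. The gap between the cKO and the flox control was narrow (10.45 in cKO replicate 3 beside 10.48 in flox control replicate 3). The mean was 10.34 ± 0.15 in the cKO (SD, n = 3), 9.50 ± 0.13 in the Cre control (SD, n = 2) and 10.81 ± 0.28 in the flox control (SD, n = 3).

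Between the control groups Anxa3 fell 2.48-fold in the Cre control (log2 -1.31, SE 0.18, 95% interval -1.70 to -0.91, adjusted p = 0.0223). It was the single member to pass a threshold of 0.05 in any comparison, where 0.486% of all tested probe sets passed between the controls. The call was lost without Cre control replicate 1 (adjusted p = 0.259), Cre control replicate 2 (0.198), flox control replicate 2 (0.0804) or cKO replicate 1 (0.0531), and without flox control replicate 1 and cKO replicate 1 together (0.1003), while the log2 fold change stayed between -1.47 and -1.21 over the alternatives. In those 5 settings the calls over all tested probe sets numbered 0 to 20, in place of 68. In such bulk samples, fewer cells of a type and less RNA per cell cannot be told apart.

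The cKO readings of Anxa3 lay between those of the control groups. Against the Cre control it read 0.84 higher on the log2 scale (SE 0.18, 95% interval 0.45 to 1.24, unadjusted p = 0.000813, adjusted p = 0.122 by limma), which passed in 1 alternative, with array weights (0.87, adjusted p = 0.0334), where the calls over all tested probe sets numbered 145 in place of 10. Relative to flox control arrays the difference was -0.46 (SE 0.16, 95% interval -0.82 to -0.11, unadjusted p = 0.0153, adjusted p = 0.492 by limma). Against both controls, as the mean of the 2 group means, these differences partly cancelled (0.19, SE 0.14, 95% interval -0.13 to 0.51, adjusted p = 0.739). A pattern with the cKO arrays between those of the controls and no overlap was found in 1.51% of all tested probe sets. The comparisons share arrays, so their values are not independent of each other.

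**Figure D2:**
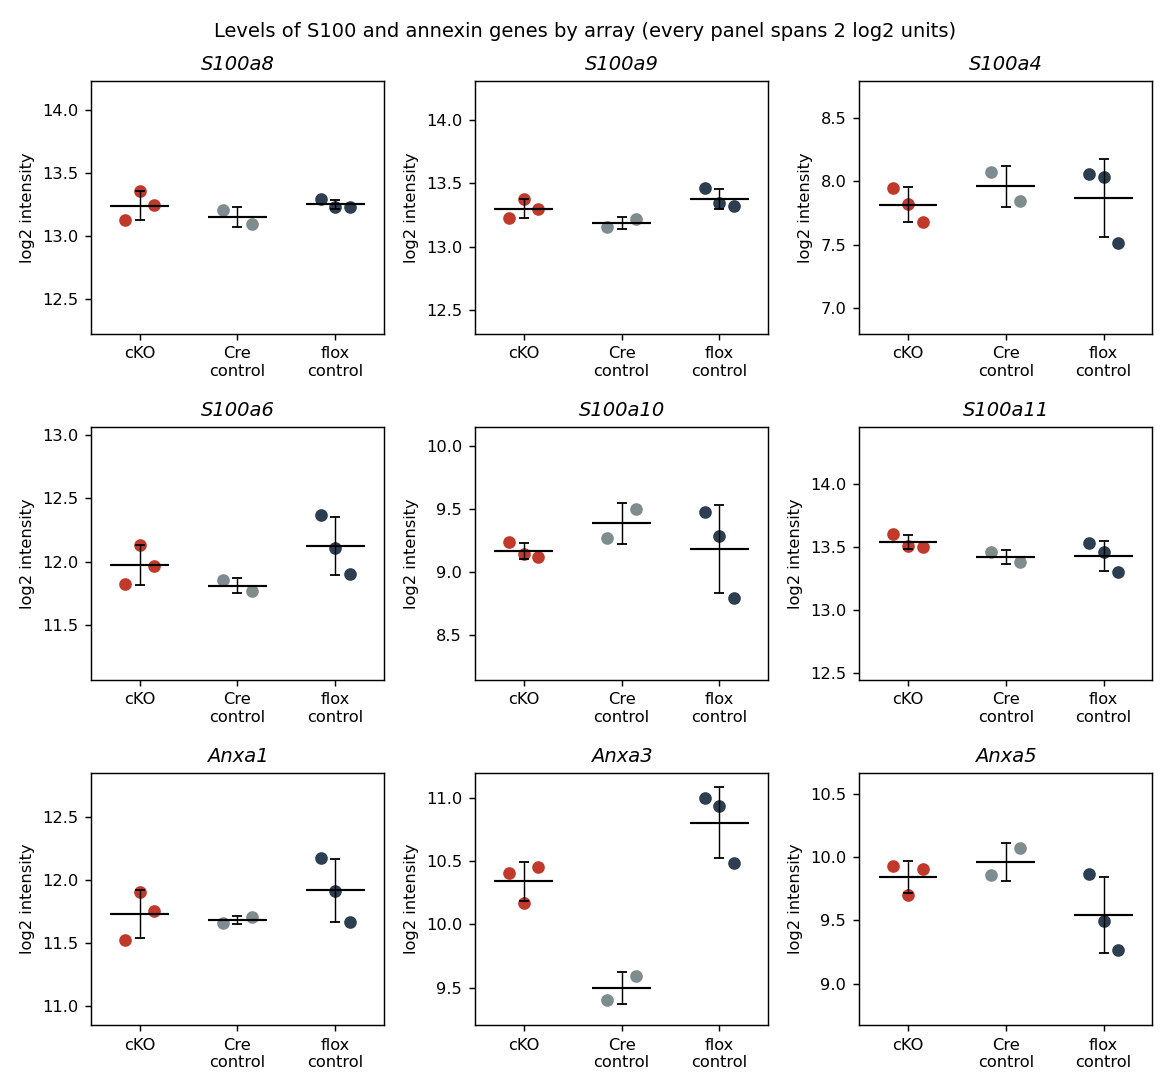
Log2 intensity (vertical axis, 2 log2 units in each panel) of the 9 genes by group, with 1 point per array, replicates in order from left to right, horizontal lines for means and bars for the SD. Anxa3 alone shows 3 separate groups, the cKO at 10.17 to 10.45, the Cre control at 9.40 to 9.59 and the flox control at 10.48 to 10.9967. The gap between the cKO and the flox control is narrow. The cKO arrays lay between those of the controls without overlap in 1.51% of all tested probe sets.

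Anxa5, whose protein is widely used as a stain for phosphatidylserine on dying cells, had the next largest spread. It read 9.93, 9.70 and 9.90 in the cKO, against 9.86 and 10.07 in the Cre control and 9.87, 9.50 and 9.27 in the flox control. The flox control reached the lower levels, but its first array lay among those of the cKO and the Cre control. The Cre control minus flox control difference was 0.42 (SE 0.18, 95% interval 0.02 to 0.83, unadjusted p = 0.0421, adjusted p = 0.319 by limma). The cKO minus flox control difference was 0.30 (SE 0.16, adjusted p = 0.674). The cKO minus Cre control difference was -0.12 (SE 0.18, adjusted p = 0.851). None of the 3 passed.

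Anxa1, which neutrophils carry to their surface and release as a pro-resolving signal through the receptor FPR2, overlapped between all groups. It read 11.53, 11.91 and 11.75 in the cKO, against 11.66 and 11.71 in the Cre control and 12.17, 11.91 and 11.67 in the flox control. The difference from both controls was -0.07 (SE 0.14, 95% interval -0.38 to 0.24, adjusted p = 0.923). Between the controls it was -0.23 (SE 0.17, adjusted p = 0.576).

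Counted over the members, none of the 9 passed when the cKO was compared with both controls, where 0.00714% of all tested probe sets did, with the flox control alone (0.0429%) or with the Cre control alone (0.0714%). At an unadjusted p under 0.05 in limma the members numbered 0 for both controls (9.52% of all tested), 1 for the flox control (8.26%), 1 for the Cre control (13.5%) and 2 where the controls were compared (14.7%). These were Anxa3 in each of the last 3, with Anxa5 between the controls. Separate, non-overlapping arrays were found for 0 members with both controls (4.36% of all tested) and for 1 with the flox control, Anxa3 (12.2%). With the Cre control there were 4, S100a9, S100a10, S100a11 and Anxa3 (34.4%), and between the controls for 4, S100a8, S100a9, S100a6 and Anxa3 (32.7%). Separate groups were thus common among all probe sets where the 2 Cre control arrays formed 1 side of the comparison alone. They were least common (4.36%) where those arrays were joined with the flox control.

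The median log2 fold change of the 9 members was 0.02 relative to both controls, -0.05 relative to flox control arrays, 0.09 relative to Cre control arrays, and -0.10 for Cre control over flox control. Over all tested probe sets the medians were 0.01, 0.01, 0.01 and -0.0047. Against both controls the 95% intervals of the 9 members reached from -0.46 to 0.51. That is the precision that 3 cKO, 3 flox control and 2 Cre control arrays gave.

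**Figure D3:**
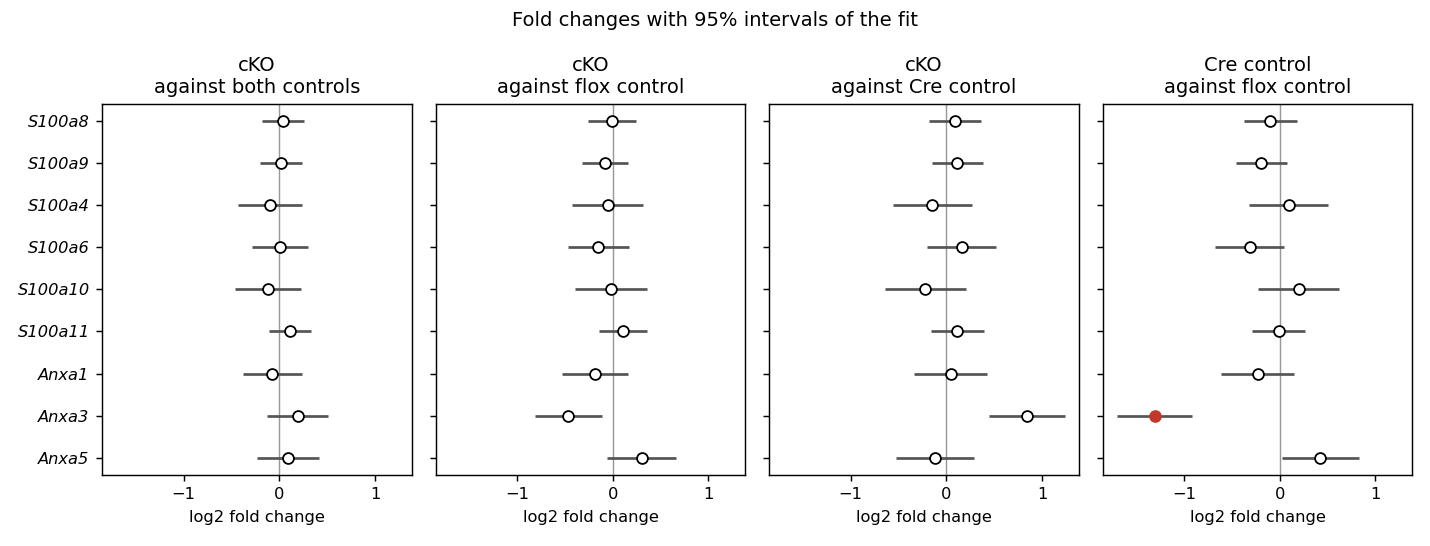
Log2 fold changes (horizontal axis) of the 9 genes in 4 comparisons, with 95% intervals as bars and a filled point where the adjusted p is under 0.05. The one filled point is Anxa3 where the control groups are compared, at -1.31, and against both controls the interval of every gene holds 0.

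The arrays of the flox control kept 1 rank order across the list. Flox control replicate 1 gave the highest and replicate 3 the lowest of the 3 flox control readings in all 9 members, an arrangement seen in 26.4% of all tested probe sets. It was also seen in 8 of 11 tested probe sets of other S100 and annexin genes and in 4 of 7 neutrophil marker probe sets, while the other 3 markers, Csf3r, Retnlg and Itgam, ran in the reverse order, with replicate 3 highest and replicate 1 lowest. The gap between these arrays ranged from small in S100a8 (13.30 and 13.23) to larger in Anxa5 (9.87 and 9.27) and S100a10 (9.47 and 8.80). Within the cKO, S100a8, S100a9, S100a6 and Anxa1 shared 1 arrangement, with replicate 2 highest and replicate 1 lowest. Of 7 neutrophil markers 1 had that arrangement, Ly6g (10.54, 11.08 and 10.98), and 2, Csf3r and Cxcr2, had the reverse. S100a4, S100a10, S100a11 and Anxa5 instead read highest in cKO replicate 1. Flox control replicate 1 and cKO replicate 1 are the pools that stood apart in sex-linked transcripts. Whether that bears on these orders was not tested.

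**Figure D4:**
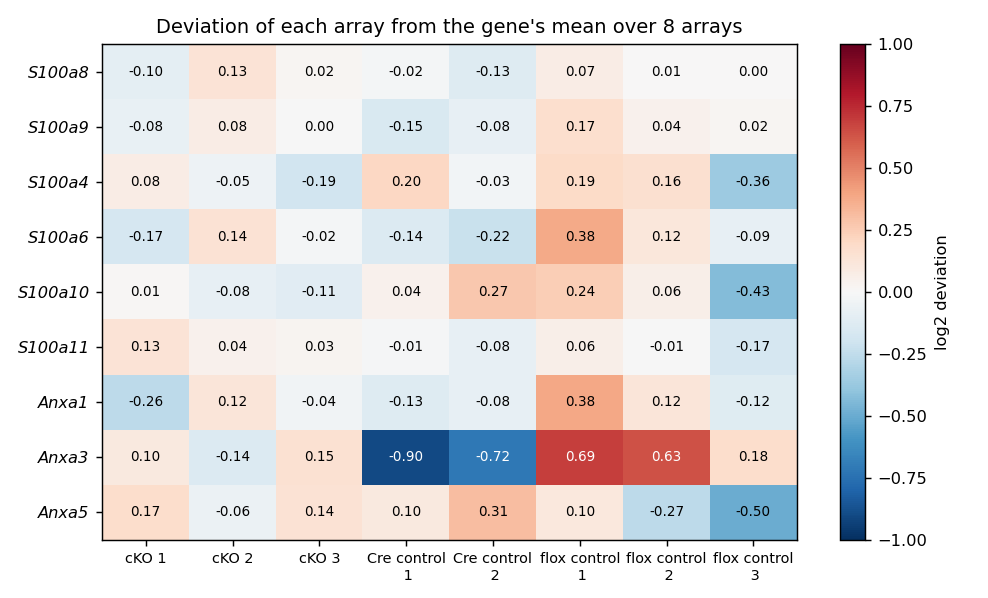
Deviation of each array (columns) from the mean of the gene over 8 arrays (rows), in log2 units, blue below and red above. Anxa3 deviates by -0.90 and -0.72 in the Cre control and by 0.69, 0.63 and 0.18 in the flox control, and every other deviation is at most 0.50 in size.

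Markers of other cells and of neutrophil maturity are given beside the Anxa3 result, as Cre control against flox control and on the log2 scale. Of 7 tested neutrophil markers 6 read lower in the Cre control (median -0.14), with a summed level of 15.31 to 15.42 in the Cre control and 15.51 to 15.56 in the flox control. All 6 tested genes of immature neutrophils read lower (median -0.39), with summed levels of 13.75 to 13.91 in the Cre control and 13.90 to 13.9996 in the flox control, and Ctsg lay below the median of all values in every array. Lcn2, which averaged 13.65 in the Cre control and 13.69 in the flox control, made up most of these sums. Mpo averaged 5.38 and 5.39 in these groups, also below that median. Of 7 tested T and NK cell markers 6 read higher (median 0.67), with summed levels of 10.03 to 10.07 in the Cre control and 9.20 to 9.74 in the flox control, and Cd4 and Klrb1c lay below that median throughout. Of 6 tested genes of dendritic cells and MHC class II 5 read higher (median 0.48), with summed levels of 12.09 to 12.18 in the Cre control and 11.43 to 11.87 in the flox control. Of 11 tested macrophage and monocyte markers 8 read higher (median 0.21), with summed levels of 13.85 to 13.91 in the Cre control and 13.78 to 14.12 in the flox control. Tested markers of B cells (2 of 5), eosinophils and mast cells (2 of 6), fibroblasts (4 of 5) and red cells (1 of 4) were few. Both eosinophil and mast cell markers read higher (median 0.42). All tested markers of fibroblasts (median -0.15), B cells (median -0.02) and red cells (-0.02) read lower. No marker passed in limma, and at an unadjusted p under 0.05 there were 3 of neutrophils, 2 of immature neutrophils, 5 of T and NK cells, 3 of dendritic cells and 2 of macrophages. Of all tested probe sets 14.7% reached that level. The part of these markers in the Anxa3 result was not tested.

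The other S100 genes were mostly dim. Of 12, all had a probe set and 6 passed the filter, and S100b, S100z, S100a16, S100a5, S100a7l2 and S100g lay below the median of all values in every array. The widest range was that of S100a13, with 7.86, 7.46 and 7.90 in the cKO, against 7.53 and 7.62 in the Cre control and 8.39, 7.86 and 7.20 in the flox control. None of the 6 passed in any of the 4 comparisons, nor had any an unadjusted p under 0.05 in limma. The median log2 fold change of the 6 was -0.09 relative to both controls and -0.17 between the controls (2 higher and 4 lower, and 1 higher and 5 lower). On chromosome 3 the S100 genes run in the order S100a1, S100a13, S100a14, S100a16, S100a3, S100a2, S100a4, S100a5, S100a6, S100a7a, S100a8, S100a9 and S100a7l2, followed after 77 other genes by S100a11 and S100a10. Of the 95 genes in this stretch that are no members, 58 had a probe set of their own and 18 passed the filter. None of the 18 passed the threshold in any comparison, and 2 had an unadjusted p under 0.05 in limma in each comparison of the cKO and 0 between the controls. Over all tested probe sets these shares were 8.26% to 13.5% in the comparisons of the cKO and 14.7% between the controls.

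Of 8 other annexins 5 were tested, and none passed. At an unadjusted p under 0.05 in limma there were 0 relative to both controls or the flox control, 1 relative to the Cre control and 3 between the controls. Over all tested probe sets the shares were 9.52% (both controls), 8.26% (flox control), 13.5% (Cre control) and 14.7% (between the controls). Their median was 0.03 relative to both controls and -0.02 between the controls. Anxa2, the partner of S100a10, read 11.66, 11.43 and 11.53 in the cKO, against 11.29 and 11.34 in the Cre control and 11.86, 11.70 and 11.42 in the flox control. Both Cre control arrays of Anxa2 were below every flox control array (-0.35, SE 0.15, unadjusted p = 0.0451, adjusted p = 0.326 by limma). Anxa4, another membrane-binding annexin, lay the other way, with 8.15, 8.06 and 7.88 in the cKO, against 8.25 and 8.34 in the Cre control and 7.70, 8.0022 and 7.43 in the flox control (Cre control minus flox control 0.59, SE 0.17, adjusted p = 0.158). Anxa6 averaged 8.74 ± 0.47 in 3 cKO arrays and 9.34 ± 0.11 in 2 Cre control arrays (SD), a difference of -0.60 (SE 0.26, adjusted p = 0.355), with cKO replicate 2 at 8.21 the lowest of all arrays. The flox control of Anxa6 averaged 8.96 ± 0.31 (SD, n = 3).

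Among receptors for calprotectin and annexin A1, 12 of 15 had a probe set and 9 were tested, none of which passed in any comparison. At an unadjusted p under 0.05 in limma the 4 comparisons gave 1 (both controls, 9.52% of all tested), 0 (flox control, 8.26%), 1 (Cre control, 13.5%) and 2 (between the controls, 14.7%). Relative to both controls 6 read higher and 3 lower, with a median of 0.01. Fpr2, the receptor of annexin A1, averaged 12.13 ± 0.17 in the cKO (SD, n = 3), 12.35 ± 0.06 in the Cre control (SD, n = 2) and 12.33 ± 0.03 in the flox control (SD, n = 3). All 3 of its cKO arrays lay below all 5 controls (-0.21, SE 0.11, adjusted p = 0.586). Separation from both controls, in either direction, was found in 4.36% of all tested probe sets. Cd69, an activation antigen reported to bind calprotectin, averaged 11.32 ± 0.58 in the cKO (SD, n = 3), against 12.40 ± 0.21 in the Cre control (SD, n = 2) and 11.82 ± 0.28 in the flox control (SD, n = 3). Its difference from both controls was -0.80 (SE 0.24, unadjusted p = 0.00787, adjusted p = 0.369 by limma). Cd14, the LPS co-receptor, averaged 13.45 ± 0.23 in the cKO (SD, n = 3), against 13.28 ± 0.01 in the Cre control (SD, n = 2) and 13.51 ± 0.06 in the flox control (SD, n = 3).

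Among 17 tested intracellular partners none passed, while 2, 1, 4 and 4 had an unadjusted p under 0.05 in limma in the same order of comparisons. Over all tested probe sets the shares at that level were 9.52%, 8.26%, 13.5% and 14.7%. Relative to both controls 12 read higher and 5 lower, with a median of 0.08. Ncf1, a cytosolic subunit of the NADPH oxidase that calprotectin is known to assist, averaged 12.07 ± 0.27 in the cKO and 12.60 ± 0.11 in the flox control (SD, n = 3 each), a difference of -0.53 (SE 0.15, unadjusted p = 0.00502, adjusted p = 0.370 by limma). Its Cre control averaged 12.28 ± 0.09 (SD, n = 2). Cybb, the catalytic subunit, averaged 12.45 ± 0.36 in 3 cKO arrays and 13.04 ± 0.10 in 2 Cre control arrays (SD), a difference of -0.59 (SE 0.19, adjusted p = 0.245). Its flox control averaged 12.64 ± 0.09 (SD, n = 3). Pef1, a penta-EF-hand calcium-binding protein, averaged 7.01 ± 0.21 in 3 cKO arrays and 6.35 ± 0.25 in 2 Cre control arrays (SD), a difference of 0.66 (SE 0.20, adjusted p = 0.233). The flox control averaged 7.19 ± 0.31 (SD, n = 3), above the cKO. Between the controls the Pef1 difference was -0.84 (SE 0.20, adjusted p = 0.109 by limma). Of the 15 tested genes of membrane repair and phosphatidylserine exposure none passed, with 2, 2, 2 and 4 at that unadjusted level, and relative to both controls 9 read higher and 6 lower (median 0.03). Xkr8, a scramblase that exposes phosphatidylserine in apoptosis, averaged 7.10 ± 0.39 in the cKO (SD, n = 3), against 7.74 ± 0.26 in the Cre control (SD, n = 2) and 7.63 ± 0.08 in the flox control (SD, n = 3). Every cKO array lay below all controls (-0.59, SE 0.17, unadjusted p = 0.00684, adjusted p = 0.369 by limma). Separation from both controls, in either direction, was found in 4.36% of all tested probe sets.

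The 12 transcription factors known for S100a8 and S100a9 were all tested, and none passed. At an unadjusted p under 0.05 in limma there was 1 between the controls (14.7% of all tested probe sets). There were 0 in each comparison of the cKO (8.26% to 13.5% of all tested). Relative to both controls 6 read higher and 6 lower (median 0.01). Cebpb, a C/EBP factor, averaged 11.53 ± 0.12 in the cKO (SD, n = 3), against 11.28 ± 0.09 in the Cre control (SD, n = 2) and 11.75 ± 0.09 in the flox control (SD, n = 3). Between the controls its difference was -0.47 (SE 0.13, unadjusted p = 0.00470, adjusted p = 0.131 by limma). Spi1, which encodes PU.1, averaged 10.26 ± 0.07 in the Cre control (SD, n = 2) and 10.58 ± 0.25 in the flox control (SD, n = 3), a difference of -0.33 (SE 0.16, adjusted p = 0.377).

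The genes most like the 3 most variable members over the 8 arrays were found by Pearson correlation among the other tested probe sets. For Anxa3 they were Creb3 (r = 0.99), Tshr (r = 0.99) and Micu2 (r = 0.99), for Anxa5 Rars (r = 0.99), Foxo1 (r = 0.98) and Rusc2 (r = 0.98), and for S100a10 Nudc (r = 0.97), Gm15867 (r = 0.96) and Kcnn4 (r = 0.95). Each was the closest of 14001 probe sets over 8 points that share arrays and groups, so such values describe likeness and carry no test. Creb3, a membrane-bound transcription factor, averaged 8.27 ± 0.09 in the cKO (SD, n = 3), 7.87 ± 0.13 in the Cre control (SD, n = 2) and 8.57 ± 0.17 in the flox control (SD, n = 3). Tshr was dim, with 5.11 to 6.04 over the arrays, and its Cre control mean of 5.19 lay below the median of all values (5.45).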

How the data were processed

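Each of 8 pools was hybridised to a mouse Gene 2.0 ST array, which reads a gene through many short probes summed to a probe set. The deposited log2 intensities had been background-corrected, normalised and summarised by the authors with RMA in Expression Console, per the labels' design text. The labels and the design text name different RNA reagents and labelling kits, and the third Cre control pool that the design text counts is not analysed here.

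From the deposited values, limma 3.58.1 (R 4.3.3) fitted 3 groups in 1 model, with Benjamini-Hochberg adjustment over 14002 probe sets that had 1 gene symbol and exceeded the median of all values (5.45) in at least 2 arrays. The call threshold was 0.05, two-sided. Of 34472 probe sets 23521 had 1 symbol, 1814 several and 9137 none, and 23328 matched RefSeq by gene identifier. The fit was tested on simulated data, with spreads not matched to each probe set. Changes of 0.5 log2 units were almost never recovered there. A gene that did not pass may therefore still differ. The members and the gene lists were chosen with earlier results of these data known. Every member is named, and from each list the genes with the 2 smallest p in each direction of a comparison could be named. Other genes (S100a13 levels, Ly6g, Csf3r, Cxcr2, Eif2s3y, Xist) are named as checks or were chosen after their values were seen. Alternatives were no filter, a filter of 3 arrays, quantile scaling, median centring, a trended robust variance, array weights, the compared groups alone, and leaving out arrays. The p-values set each difference against the spread between pools of 5 mice, estimated over the 3 groups and moderated across probe sets.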

Additional observations from a re-analysis of the deposited data

How the results depend on the processing

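The number of members past the threshold for the cKO and the Cre control was 0, and with array weights it was 1, Anxa3, where 145 of 14002 tested probe sets passed in place of 10. Between the controls it was 1. It was 0 when cKO replicate 1 and flox control replicate 1, which differ in sex-linked transcripts, were both left out, and it ranged from 0 to 1 when each array was left out in turn. In the other alternatives, and in all of them for the cKO with both controls or the flox control, these counts did not move. Signs turned only for log2 fold changes that had not passed. Without that pair of pools, the cKO compared with both controls gave 0.0922 for Anxa1, the cKO compared with the flox control gave 0.0395 for Anxa1, 0.0891 for S100a10, 0.0453 for S100a6, 0.0716 for S100a8 and 0.00325 for S100a9, and the Cre control compared with the flox control gave 0.0400 for S100a11. With array weights S100a6 was -0.0224 relative to both controls. Leaving out each array in turn gave, relative to both controls, -0.161 to 0.0284 for Anxa1, -0.075 to 0.0822 for S100a6, -0.0167 to 0.0988 for S100a8 and -0.0204 to 0.0554 for S100a9. Relative to the flox control it gave -0.212 to 0.125 for S100a10, -0.232 to 0.0437 for S100a4 and -0.0662 to 0.0493 for S100a8, and relative to the Cre control -0.0448 to 0.145 for Anxa1. Between the controls it gave -0.0746 to 0.0400 for S100a11 and -0.0868 to 0.207 for S100a4. The cause was not tested. Where a Cre control array was left out, the lone array was assumed to vary like the other groups. Fits of the compared groups alone were not run for both controls together, which use every array. No paired analysis was possible because the sample numbers run over all samples and are shared by no groups. The number of arrays limits the precision. Some signals lay near the array maximum, and whether differences were compressed there was not tested.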

Other observations

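The genes beside Anxa3 on chromosome 5 were looked at after the Anxa3 values had been seen. Of the 3 nearest tested genes on each side, Cxcl13, Cnot6l and Mrpl1 before it and Bmp2k, Antxr2 and Prdm8 after it, none passed between the controls in limma. Antxr2, an anthrax toxin receptor, had the lowest p, with a Cre control minus flox control difference of -0.68 on the log2 scale (SE 0.25, unadjusted p = 0.0222, adjusted p = 0.249), and the cKO minus Cre control difference was 0.74 (SE 0.25, adjusted p = 0.255). Bmp2k, a kinase, differed by -0.23 (SE 0.14, adjusted p = 0.514) between the controls.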
